A study of Mus musculus with 2 samples.

Results

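The 34 genes described here mark resident macrophages and other myeloid cells, and were taken as a named list of textbook markers, by a rule that uses no measured value. All 34 were found by symbol among the 55536 annotated genes of the gene tables. The study sequenced total RNA from the adrenal gland of female B6CASTF1/J mice, an F1 hybrid of a laboratory strain and a CAST strain, at 25 days of age. It holds 2 libraries in 1 group with no treatment and no other genotype, so the only comparison it allows is between replicate 1 and replicate 2. Per the labels, 300 ng of RNA entered each library, the kit keeps the strand, and synthetic ERCC spike-in RNAs were added. The labels do not settle whether the libraries came from separate animals: the tissue descriptions name different animals, while the donor field and the library description are shared. An SD or a p-value therefore measures only the difference between these libraries, which may be technical.

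Tissue macrophages depend on signals through the growth factor receptor Csf1r and on the transcription factor PU.1, which is encoded by Spi1. They take up dying cells and debris through scavenger and phosphatidylserine receptors, digest them in lysosomes, and make complement C1q themselves instead of drawing it from the liver. In the adrenal gland such cells lie among steroid-producing cells and along the dense capillary bed.

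The start regions of 3 members show how the list can be read against the genome. PU.1 binds purine-rich sites with the core GAGGAA, or TTCCTC when read on the opposite strand. A letter-by-letter search covered the 250 bases before each start in the RefSeq promoter table (build GRCm38.p6), which held 28 starts of 24 members. The core occurred, on either strand, before 14 of the 28 starts (50.0%), and before 23.3% of all 32851 starts in the table. By gene, 13 of 24 members (54.2%) and 25.9% of all 27025 genes held it. The shares are a description, and a match of these letters is not a binding site. The stretches below belong to the members of the highest level that hold the core and whose stretch does not overlap an annotated exon. Each is printed 5′ to 3′ on the gene's strand up to the base before the start, with the core in capitals.
C1qb: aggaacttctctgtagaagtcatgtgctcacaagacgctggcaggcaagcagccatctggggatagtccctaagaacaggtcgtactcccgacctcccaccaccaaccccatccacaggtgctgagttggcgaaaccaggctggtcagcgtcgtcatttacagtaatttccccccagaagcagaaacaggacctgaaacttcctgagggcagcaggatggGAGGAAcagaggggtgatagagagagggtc
Ctss: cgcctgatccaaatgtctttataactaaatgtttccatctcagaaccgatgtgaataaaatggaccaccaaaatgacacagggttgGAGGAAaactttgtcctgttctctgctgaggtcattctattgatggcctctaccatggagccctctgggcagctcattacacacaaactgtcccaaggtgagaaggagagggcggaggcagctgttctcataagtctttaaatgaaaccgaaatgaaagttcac
Cd68: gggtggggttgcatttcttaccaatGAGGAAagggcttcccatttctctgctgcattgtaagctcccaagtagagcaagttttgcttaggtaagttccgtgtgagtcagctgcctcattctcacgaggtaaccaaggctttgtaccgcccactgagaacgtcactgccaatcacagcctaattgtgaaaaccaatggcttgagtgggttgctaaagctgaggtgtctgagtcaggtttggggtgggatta
The C1qb stretch is chr4:136886201-136886450 on the minus strand, and its core begins at position -30 from the start. That of Ctss is chr3:95526536-95526785 on the plus strand, with the core at -164. That of Cd68 is chr11:69666171-69666420 on the minus strand, with the core at -225. All 3 cores lie on the strand of the gene. Mrc1 had 3 matches, Itgam and S100a8 had 2 each, and Lyz2 had 0 in the same window.

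Levels are given in TPM, transcripts per 1000000, which divides reads by transcript length so that genes can be set side by side within a library. Replicate 1 held 19366343 expected counts in all, and replicate 2 held 33728646. Nuclear protein-coding genes other than Lars2 took 7038809 and 22306477 of them, and their TPM summed to 206815 and 338304. A coding gene of unchanged share among coding RNA therefore had a TPM 1.64 times higher in replicate 2. Differences between the libraries are accordingly given as log2 ratios of replicate 2 over replicate 1 from counts scaled by TMM, a method that sets the bulk of genes equal. The median over the 16872 genes whose counts averaged 10 or more was 0.03 on that scale.

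Macrophage genes were present in both libraries at low levels, led by lysozyme and complement C1q. Of the 34 members, 18 reached 1 TPM in both libraries, 4 more did so in replicate 2 alone (Cx3cr1, Adgre1, Itgb2 and Spi1), and 12 did so in neither. Of all 22014 protein-coding genes, 51.5% reached 1 TPM in both. The median over the 34 members was 1.075 in replicate 1 and 1.57 in replicate 2, or 1.32 ± 0.35 TPM (SD, n = 2). The coding genes at 1 TPM or more in both libraries had medians of 7.40 and 12.66 TPM. Together the members held 1836 counts in replicate 1 and 6664 in replicate 2, or 261 and 299 in each 1000000 coding counts. In whole tissue, fewer macrophages and less of an RNA per macrophage cannot be told apart.

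**Figure D1:**
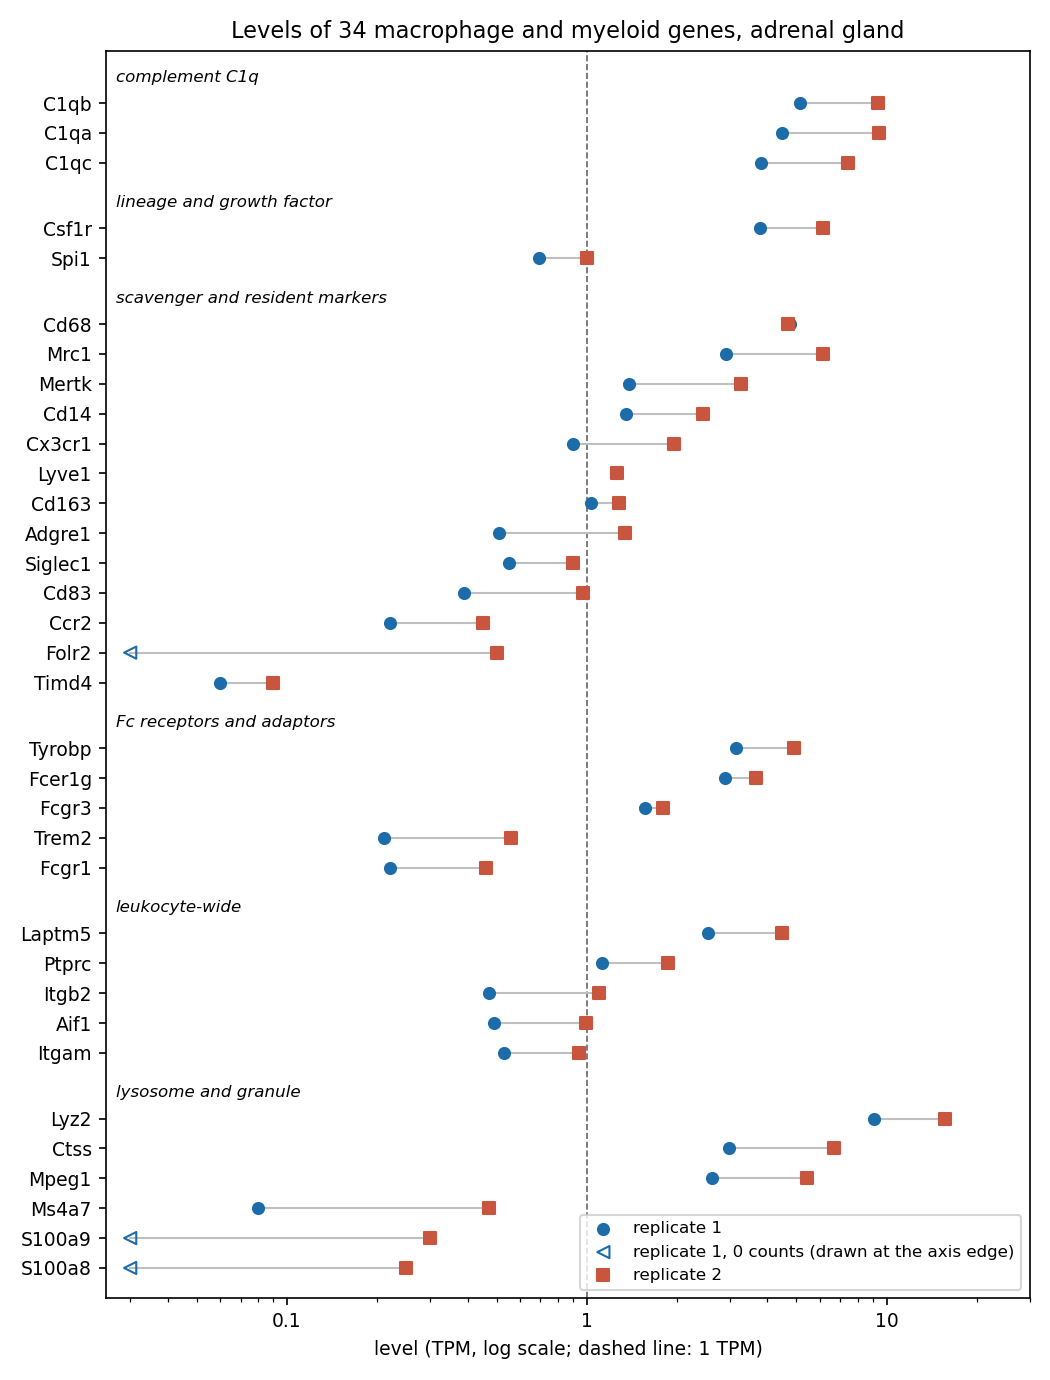
Level of each of the 34 members in TPM on a log axis, with replicate 1 as circles and replicate 2 as squares, grouped by role; open triangles at the axis edge mark 0 counts and the dashed line marks 1 TPM. Lyz2 is highest in both libraries, and TPM is higher in replicate 2 for 33 members, Cd68 being the exception.

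The order of the members was close in both libraries, with a Spearman correlation of 0.957 over the 34 members and a Pearson correlation of 0.974 on log2(TPM + 1). The points share the library, its depth and the gene lengths, so these values describe the ranking only. Lyz2 came first in both. Cd68 moved most among the high members, from rank 3 in replicate 1 to rank 10 in replicate 2. C1qa and C1qb, in ranks 2 to 4, changed order.

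Complement C1q is built from 3 chains, encoded by C1qa, C1qb and C1qc. The genes follow each other on the minus strand of chromosome 4 (mm10), at 136880129 to 136886187 for C1qb, 136889804 to 136893065 for C1qc and 136895917 to 136898803 for C1qa. C1qb was at 5.12 and 9.33 TPM in replicates 1 and 2, from 83 and 290 counts. C1qa was at 4.48 and 9.46 TPM, and C1qc at 3.82 and 7.42 TPM. Within a library the chains lay close together: the level of C1qa was 0.875 and 1.01 times that of C1qb, and the level of C1qc 0.746 and 0.795 times. C1qa and C1qb exchanged places between the libraries, while C1qc was the lowest in both. The log2 ratios were 0.12 for C1qb, 0.21 for C1qc and 0.34 for C1qa, and each 95% counting interval covered 0 (that of C1qa ran from -0.05 to 0.74).

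The lineage genes were Csf1r, the receptor for the macrophage growth factors Csf1 and Il34, and Spi1. Csf1r was at 3.79 and 6.12 TPM from 173 and 645 counts, sixth of the members in each library. Its exons overlap those of Hmgxb3 on the opposite strand, a gene with 460 and 1480 counts. Spi1, a transcription factor, was lower, at 0.69 and 1.00 TPM from 12 and 39 counts. The log2 ratio of Csf1r was 0.21 (95% counting interval -0.03 to 0.47), and that of Spi1 was 0.02 with an interval from -0.95 to 1.09. Neither passed the test.

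The scavenger and resident markers held the members that differed most clearly between the libraries. Mrc1, the mannose receptor CD206 of tissue macrophages (chromosome 2, 14229392 to 14332057), was at 2.91 and 6.12 TPM from 243 and 993 counts, the highest counts of any member. Mertk, a receptor tyrosine kinase for the uptake of dying cells (chromosome 2, 128698956 to 128802894), was at 1.38 and 3.26 TPM from 95 and 425 counts. Cd68, a lysosomal membrane protein (chromosome 11, 69664213 to 69666153), was at 4.75 and 4.69 TPM from 79 and 166 counts. Cd68 thus had nearly the same TPM in both libraries, while every other member was higher in replicate 2 on that scale. Lyve1, a hyaluronan receptor of lymphatic endothelium and of perivascular macrophages (chromosome 7, 110850607 to 110863239), followed Cd68 in this, at 1.25 and 1.26 TPM from 50 and 83 counts.

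The remaining members of this role reached at most 2.44 TPM. Cd14, a co-receptor for bacterial lipopolysaccharide, was at 1.35 and 2.44 TPM. Cx3cr1, the fractalkine receptor, was at 0.90 and 1.95 TPM. Cd163, the scavenger receptor for haemoglobin bound to haptoglobin, was at 1.03 and 1.28 TPM. Of these 3, only Cx3cr1 was below 1 TPM in replicate 1. Adgre1, which encodes the classical mouse macrophage antigen F4/80, was at 0.51 and 1.34 TPM from 26 and 124 counts. Siglec1, the sialic acid receptor CD169, was at 0.55 and 0.90 TPM. Cd83, an activation marker of antigen-presenting cells, was at 0.39 and 0.97 TPM. Adgre1, the F4/80 gene, was thus well below Csf1r in both libraries, at 0.135 and 0.219 times its level.

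The monocyte receptor Ccr2, which draws monocytes out of bone marrow, was at 0.22 and 0.45 TPM. Cx3cr1 was 4.09 and 4.33 times higher than Ccr2. Folr2, a folate receptor of long-lived tissue macrophages, had 0 counts in replicate 1 and 11 in replicate 2 (0.50 TPM). A count of 0 in replicate 1 allows up to 3 counts, or 0.259 TPM, so no fold is given. Its exons overlap those of Gm10602 on the opposite strand, which had 36 and 134 counts. Timd4, a phosphatidylserine receptor of self-renewing resident macrophages, was the lowest member, at 0.06 and 0.09 TPM from 2 and 6 counts.

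Fc receptors bind the constant part of antibodies, and they signal through small adaptor proteins. The adaptor Tyrobp (DAP12) was at 3.15 and 4.92 TPM, and the adaptor Fcer1g (the common Fc gamma chain) at 2.88 and 3.67 TPM. Their transcripts are short, so these levels rest on 24 and 72 counts for Tyrobp and on 24 and 65 for Fcer1g. Of the receptors, Fcgr3 was at 1.56 and 1.80 TPM and the high-affinity receptor Fcgr1 at 0.22 and 0.46 TPM. Trem2, a lipid receptor that signals through Tyrobp, was at 0.21 and 0.56 TPM from 10 and 27 counts. The adaptors thus lay above their receptors in both libraries, Tyrobp at 15.0 and 8.79 times Trem2. Of the 5 genes, 4 had a negative log2 ratio, from -0.10 for Tyrobp to -0.53 for Fcgr3, and that of Fcgr1 was 0.00. None of the 5 passed the test, and the interval of Fcgr3 ran from -1.18 to 0.10.

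Leukocyte-wide genes are shared by macrophages, granulocytes and lymphocytes. Ptprc, the common leukocyte antigen CD45, was at 1.12 and 1.87 TPM. Laptm5, a lysosomal protein of blood cells, was at 2.54 and 4.49 TPM. The integrin chains Itgam (CD11b) and Itgb2 (CD18), which pair to form complement receptor 3, were at 0.53 and 0.94 TPM and at 0.47 and 1.10 TPM. Their order changed between the libraries, with Itgb2 at 0.887 and 1.17 times Itgam. Aif1, which encodes the calcium-binding protein Iba1, rested on 5 and 18 counts (0.49 and 0.99 TPM). The log2 ratios of the 5 genes ran from -0.04 for Laptm5 to 0.39 for Itgb2, and none passed the test.

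Lysosome and granule genes included the highest member. Lyz2, the macrophage form of lysozyme (chromosome 10, 117277331 to 117282321), was at 9.08 and 15.65 TPM, or 12.4 ± 4.65 TPM (SD, n = 2), from 181 and 599 counts. It was 8.11 and 8.37 times higher than Ptprc. Ctss, a lysosomal protease that acts in antigen presentation, was at 2.97 and 6.66 TPM. Mpeg1, which encodes the pore-forming protein perforin-2 of macrophages (chromosome 19, 12460779 to 12465283), was at 2.61 and 5.44 TPM from 181 and 724 counts. These 3 genes stood well above the rest of their role. Ms4a7, a membrane protein of resident macrophages, had 2 and 15 counts (0.08 and 0.47 TPM). S100a8 and S100a9 encode calprotectin, the main cytosolic protein of neutrophils. They had 0 counts in replicate 1, and 3 and 4 counts in replicate 2 (0.25 and 0.30 TPM).

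Between the libraries, few members differed beyond counting error. Of the 34, 29 reached the minimum mean count of 10 and were tested with an exact conditional binomial test, adjusted by Benjamini-Hochberg over the 16872 genes at that minimum. Ms4a7, Folr2, Timd4, S100a8 and S100a9 fell below it. The test called 5 of 29 members (17.2%), beside 25.0% of all genes tested. It called 3 higher in replicate 2 (10.3%), beside 12.6% of all genes, and 2 lower, beside 12.4%. The members' share was below that of all genes, and their counts were low, with medians over the 34 of 32.9 and 109. At an unadjusted p under 0.05 there were 6, the sixth being Ctss (log2 ratio 0.42, p = 0.040 and adjusted p = 0.12 in the same exact binomial test).

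The 3 members higher in replicate 2 were Mertk, Mrc1 and Mpeg1. The log2 ratio of Mertk was 0.48 (95% counting interval 0.15 to 0.81, adjusted binomial p = 0.016). For Mrc1 it was 0.35 (0.14 to 0.56, adjusted binomial p = 0.0043), and for Mpeg1 0.32 (0.08 to 0.56, adjusted binomial p = 0.035). Mertk did not pass in the second deposited quantification (0.33, adjusted binomial p = 0.086), and Mpeg1 did not pass when no minimum count was set.

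The 2 members lower in replicate 2 were Cd68 and Lyve1. The log2 ratio of Cd68 was -0.61 (95% counting interval -1.01 to -0.21, adjusted binomial p = 0.016), and that of Lyve1 was -0.94 (-1.48 to -0.42, adjusted binomial p = 0.0033). Scaled by total counts, where the median of all genes was 0.91, Cd68 was at 0.27 and Lyve1 at -0.07, which no longer passed. Cd68 did not pass with spike-in scaling either (-0.48). Genes of other tissues were also called lower, as were some of the gland's own. All 7 hepatocyte markers were called lower in replicate 2, with summed levels of 204 and 3.82 TPM in replicates 1 and 2, led by Alb (albumin) at 141 and 3.47 TPM. All 5 adipocyte markers were called lower as well, with a median log2 ratio of -0.32, from -0.27 for Adipoq to -0.91 for Ucp1, the uncoupling protein of brown fat. The summed levels of the adipocyte markers were 754 and 934 TPM. Of 5 adrenal cortex markers, 1 was called lower (Star, log2 ratio -0.20) and 3 higher. Of 5 chromaffin markers, 2 were called lower (Th, -0.15, and Chgb, -0.09) and 3 higher. Of 5 erythroid markers, 3 were called lower and 1 higher. Of all genes tested, 12.4% were called lower and 12.6% higher. The part of liver or fat RNA in the ratios of Cd68 and Lyve1 was not tested. Markers of the liver's own macrophages, the Kupffer cells, were near 0 in both libraries: none of Clec4f, Cd5l, Vsig4, Marco and Timd4 exceeded 6 counts, and Vsig4 had 0. In replicates 1 and 2, Clec4f had 2 and 1 counts, Cd5l 6 and 6, Marco 1 and 0, and Timd4 2 and 6. All 5 fell below the minimum mean count, so none was tested between the libraries. A small share of liver macrophages was not tested either.

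The other lymphatic markers went both ways. Prox1, a transcription factor of lymphatic endothelium, was at 11.05 and 21.97 TPM and called higher in replicate 2 (log2 ratio 0.26, adjusted binomial p = 3.0e-07). Flt4, the receptor VEGFR3, was at 3.21 and 6.61 TPM and was also called higher (0.27, adjusted binomial p = 0.016). The ratio of Pdpn, podoplanin, was 0.69 on 12 and 63 counts and did not pass (adjusted binomial p = 0.31). Prox1 was far above Pdpn (0.58 and 1.36 TPM) and Lyve1 (1.25 and 1.26 TPM). The cell types behind the reads of Prox1 and Flt4 were not tested, so their ratios do not measure lymphatic content. Ccl21a, a lymphatic chemokine with near-identical copies, was below the minimum mean count and was not tested. Its main entry had 10.4 and 6.01 counts, a log2 ratio of -2.21 with an interval from -4.16 to -0.82, and a second entry had 0 and 2.46 counts.

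**Figure D2:**
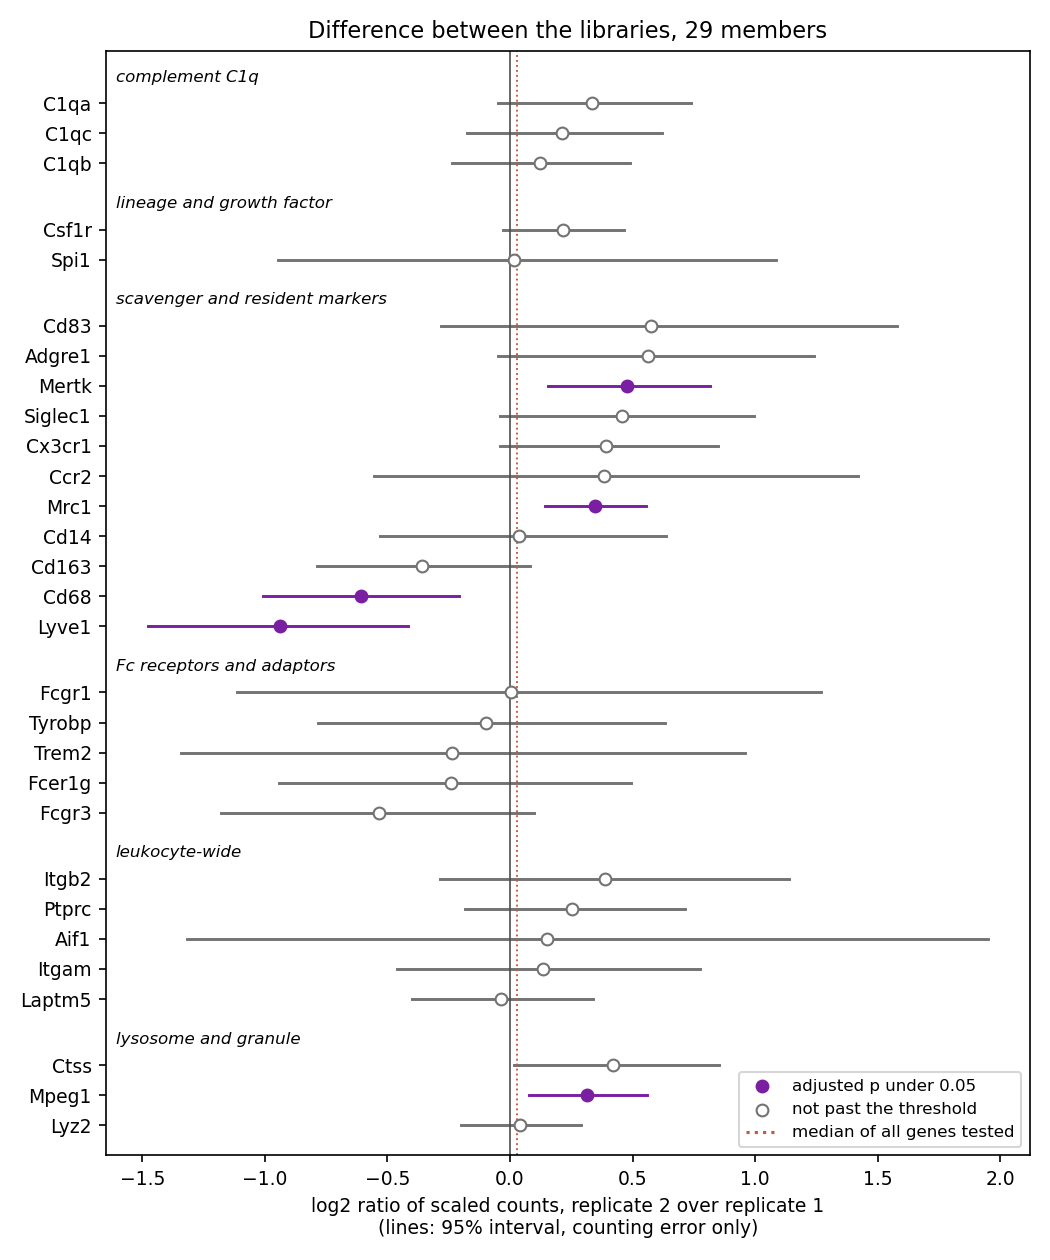
Log2 ratio of TMM-scaled counts, replicate 2 over replicate 1, for the 29 members at the minimum mean count of 10, with 95% counting intervals as lines; filled points have an adjusted binomial p under 0.05 and the dotted line is the median of all genes tested. Mertk, Mrc1 and Mpeg1 lie above 0, and Cd68 and Lyve1 below it.

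By direction alone, 21 of 29 members (72.4%) were higher in replicate 2, beside 54.0% of all genes tested. The median log2 ratio of the 29 was 0.15, beside 0.03 for all genes, and the median of its absolute size was 0.32, beside 0.20. The intervals of 23 members covered 0. None of the 29 was 2-fold apart, beside 5.56% of all genes tested. The largest differences that did not pass were those of Cd83 (0.58, interval -0.28 to 1.58) and Adgre1 (0.56, interval -0.05 to 1.24). The median distance from a member's interval bound to its ratio was 0.52, so the interval of a typical member was wide. This distance is not the detection limit of the adjusted test. Members with more counts were called at smaller ratios, such as Mpeg1 at 0.32 and Mrc1 at 0.35.

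The ratio between members changed little in some pairs and more in others. Mrc1 stood at 2.33 times Lyve1 in replicate 1 and 4.86 times in replicate 2, and at 2.83 and 4.78 times Cd163. C1qb stood at 1.08 and 1.99 times Cd68. By contrast, C1qa over C1qc was 1.17 and 1.27, and Tyrobp over Fcer1g was 1.09 and 1.34. With n = 2 these ratios of levels were not tested.

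Markers of other blood cells were mostly low, and the source of the reads of leukocyte-wide genes was not tested. None of 10 neutrophil markers reached 1 TPM, 4 of them (Ly6g, Mpo, Ngp and Camp) had 0 counts in both libraries, and none had more than 16 counts in a library. None of 10 T, B and NK cell markers reached 1 TPM, and Cd3e had 0 and 7 counts. Of 6 monocyte markers, 2 reached 1 TPM in both libraries: Plac8 (1.15 and 3.16 TPM) and F13a1 (1.62 and 2.74 TPM), the coagulation factor XIII chain that some tissue macrophages also express. Of 7 dendritic cell markers only Zbtb46 did (3.07 and 6.84 TPM), a transcription factor that endothelium expresses too, while Flt3, Xcr1 and Clec9a had at most 8 counts. Of 7 mast cell markers only Kit did, and Fcer1a had 0 counts in both. Among 4 microglia markers Tmem119 passed (1.14 and 2.55 TPM), and Sall1 had 2 and 1 counts. Summed over each list of 10, the neutrophil markers were at 0.90 and 0.70 TPM and the lymphocyte markers at 0.55 and 1.91 TPM. The 34 members summed to 61.1 and 108 TPM, but a sum grows with the number of genes. Median levels in replicates 1 and 2 were 0 and 0.025 TPM for the neutrophil markers and 0.02 and 0.15 TPM for the lymphocyte markers. For the members they were 1.075 and 1.57 TPM. Of the list's own macrophage markers, the C1q genes, Csf1r and Mrc1 were above 2 TPM in both libraries, while Folr2 had 0 counts in replicate 1 and Timd4 at most 6.

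**Figure D3:**
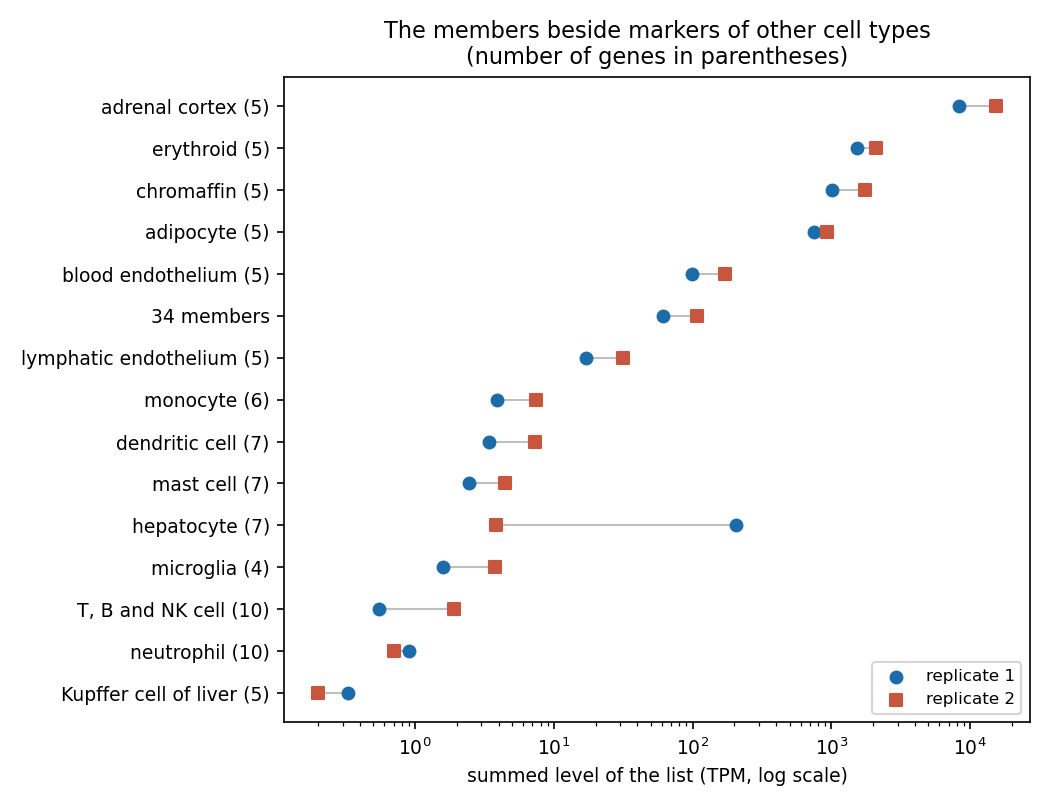
Summed TPM of the 34 members and of each list of cell type markers in replicate 1 (circles) and replicate 2 (squares), on a log axis, with the number of genes in parentheses. The sum of the 34 members lies between those of blood and lymphatic endothelium, lists of 5 genes each. A sum grows with the number of genes, so this order does not compare levels per gene. Median levels were 1.075 and 1.57 TPM for the members and 1.25 and 1.36 TPM for the lymphatic list. The neutrophil, lymphocyte and Kupffer lists sum to below 2 TPM, and the hepatocyte sum falls from 204 to 3.82 TPM. Prox1 alone holds 11.05 and 21.97 of the 16.9 and 31.7 TPM of the lymphatic list.

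Ligands of the members were mostly well expressed. Of 13, 10 reached 1 TPM in both libraries. Of the 10 tested, 3 were called higher in replicate 2 and 2 lower, beside 12.6% and 12.4% of all genes. For Csf1r, Il34 was at 4.54 and 12.7 TPM and called higher (log2 ratio 0.58, adjusted binomial p = 0.0038), and Csf1 was at 3.18 and 4.85 TPM with a ratio of 0.08. For Mertk, the bridging proteins Gas6 and Pros1 were at 20.9 and 54.7 TPM and at 10.3 and 18.9 TPM. Gas6 was called higher in replicate 2 (0.65, adjusted binomial p = 1.1e-33), whereas the ratio of Pros1 was 0.13 and did not pass. Cx3cl1, the fractalkine ligand of Cx3cr1, was at 4.84 and 8.31 TPM. The monocyte-attracting ligands of Ccr2, namely Ccl2, Ccl7 and Ccl12, had at most 5 counts in a library. Cd47, whose product tells macrophages not to engulf a cell, was at 36.7 and 72.5 TPM, and its receptor Sirpa at 9.81 and 19.2 TPM. Apoe, a lipid carrier bound by Trem2, was at 204 and 235 TPM, and C3, whose fragments bind the Itgam and Itgb2 pair, was at 95.8 and 92.3 TPM. Apoe and C3 were the 2 ligands called lower in replicate 2 (log2 ratios -0.42 and -0.76), and the cause was not tested.

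Of 14 partners and signalling genes of myeloid cells, 5 reached 1 TPM in both libraries. Of the 12 tested, none was called higher or lower in replicate 2, beside 12.6% and 12.4% of all genes. With so few genes of mostly low counts, this does not show that the list was stable. Lyn, a kinase that phosphorylates receptor tails, led at 9.27 and 16.88 TPM, followed by Cyba, a chain of the phagocyte oxidase, at 5.33 and 8.90 TPM. Its partner chain Cybb was at 1.15 and 2.68 TPM. The phosphatase gene Inpp5d and the phospholipase gene Plcg2 were the other two above the threshold.

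Of 10 myeloid transcription factors, 7 reached 1 TPM in both libraries. All 10 were tested, and 2 were called higher in replicate 2 (Cebpb and Irf8) and 1 lower (Cebpa, log2 ratio -0.17), beside 12.6% and 12.4% of all genes. Cebpb was at 101 and 193 TPM and Cebpa at 24.3 and 37.9 TPM, both of which act in many tissues, fat and liver included. Irf8, which sets macrophage and dendritic cell fate, was at 5.65 and 16.9 TPM and called higher (log2 ratio 0.81, adjusted binomial p = 6.7e-16). Maf, a factor of mature macrophages, was at 4.98 and 8.99 TPM, with a ratio of 0.06. Irf8 was thus several times above Spi1, the PU.1 gene, in both libraries. The log2 ratio of Irf8 was also above the highest of the tested members (Cd83, 0.58). The cell types behind the reads of Irf8 were not tested.

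Of 31 other macrophage genes, 14 reached 1 TPM in both libraries, and of 25 tested 6 were called higher in replicate 2 and none lower, beside 12.6% and 12.4% of all genes. Stab1, a scavenger receptor of macrophages and sinusoidal endothelium, was at 13.07 and 26.2 TPM (log2 ratio 0.24, adjusted binomial p = 5.9e-04). Sirpa was called higher as well (0.29, adjusted binomial p = 4.0e-04), as were Lcp1, a leukocyte actin-bundling protein, at 1.86 and 3.64 TPM, and Ctsc, a lysosomal protease, at 2.02 and 4.06 TPM. The remaining pair, Coro1a and Tlr2, was below 1 TPM in replicate 1. The lysosomal proteases Ctsb and Ctsd, which most cells express, were far higher, at 201.7 and 389 TPM and at 216 and 344 TPM, with ratios of -0.03 each. Msr1, the class A scavenger receptor, and Lgals3, galectin-3, had negative ratios of -0.71 and -0.65 that did not pass. The platelet and macrophage chemokine gene Pf4 was at 1.59 and 2.77 TPM on 7 and 31 counts.

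The transcript tables show which forms carried these levels. Of the 34 members, 29 have several annotated transcripts, and 13 of these had the same leading transcript in both libraries and both quantifications. The leading transcript was protein-coding in all 4 cases for 23 of the 34. Of the 25 tested members with several transcripts, 15 had at least 80 percent of their abundance on protein-coding transcripts in both libraries. For 4 members, Aif1, Cd163, Cd83 and Ptprc, at least 20 percent lay on retained-intron transcripts in both libraries of the first quantification. The share of Aif1 rests on 5 and 18 counts of the gene, and in the second quantification it was 6.39 and 51.8 percent. Cd83 was the extreme, with 100 percent on the retained-intron form Cd83-202 in both libraries, and 100 and 91.6 percent in the second quantification. Ptprc, whose exons are spliced differently among blood cells, had 46.9 and 46.95 percent on retained-intron forms. Trem2 led with a retained-intron form in replicate 1 (52.3 percent) and with a coding form in replicate 2 (85.5 percent), on 10 and 27 counts.

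**Figure D4:**
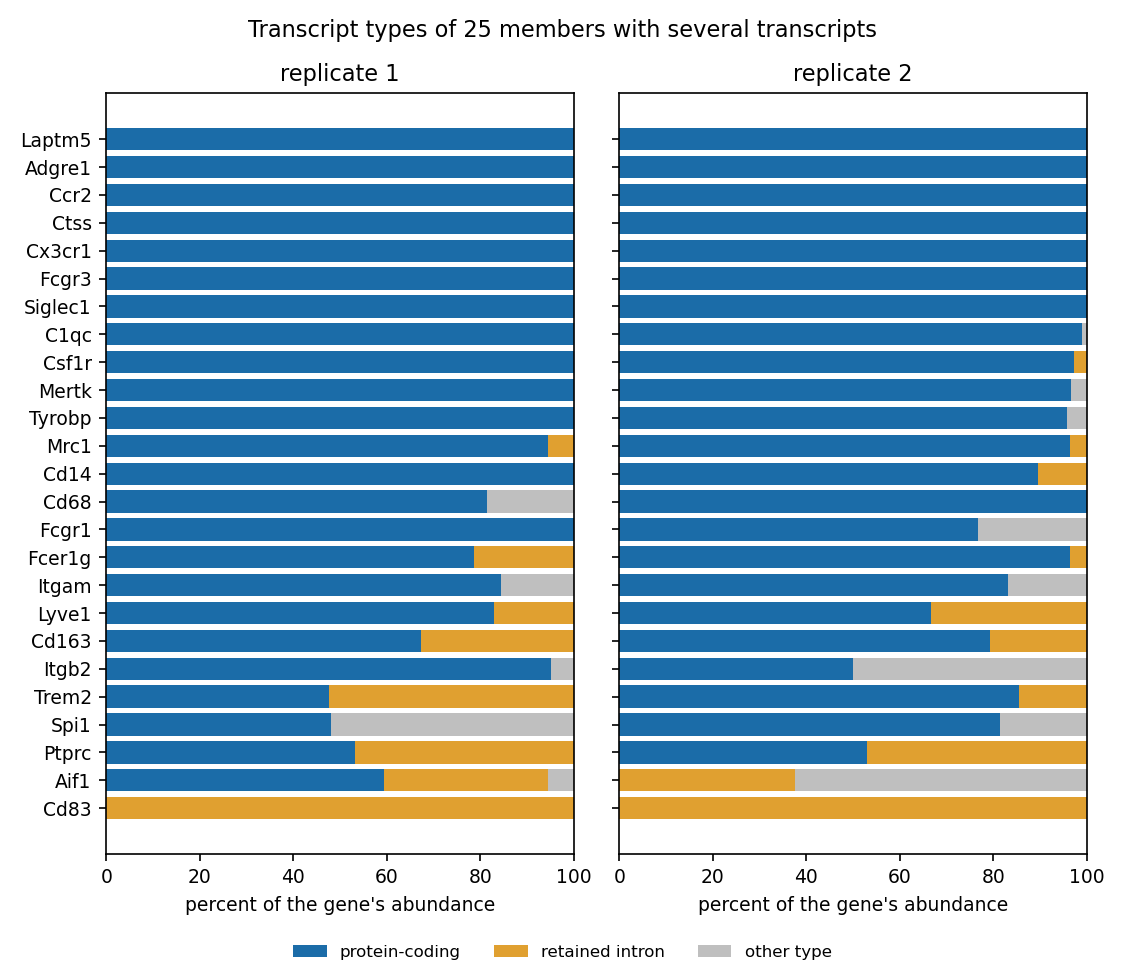
Percent of each gene's abundance on protein-coding, retained-intron and other transcripts in replicate 1 (left) and replicate 2 (right), first quantification, for the 25 tested members with several annotated transcripts. In 15 of the 25 at least 80 percent is protein-coding in both libraries, Cd83 is 100 percent retained intron in both libraries, and Aif1, Itgb2, Spi1 and Trem2 change between them.

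Some members share reads with near-identical genes or lie over another gene. Expected counts were not whole numbers for Lyz2, Fcgr3 and Ccr2, which have near-identical relatives in the genome. Relatives of the first pair were low: Lyz1 had 12.03 and 56.2 counts, Fcgr2b had 10.1 and 41.7, and Fcgr4 had 3 and 19. Values of these 3 members are uncertain to the extent that reads could be assigned to a relative. Exons of 4 members overlap those of another gene (Csf1r, Cx3cr1, Itgam and Folr2). For Cx3cr1 and Itgam the overlapping genes, Gm33858 and Gm49368, had at most 1 count.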

How the data were processed

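Total RNA was sequenced in 2 libraries of 1 group. The authors deposited expected counts (estimated reads per gene, not always whole) and TPM with its interval per gene, with, per the file headers, each transcript's percent of its gene. A second transcript table from another quantification was summed per gene. The notes beside the deposited files name mm10 and GENCODE M21, and the program is not given in the sources used here.

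Counts of annotated genes were rounded and scaled by TMM (edgeR 4.0.16, R 4.3.3). Log2 ratios used a prior of 1 count. As there is no estimate of replicate spread, genes were compared by an exact conditional binomial test, adjusted by Benjamini-Hochberg (threshold 0.05) over those whose counts averaged 10 or more. It and the exact 95% Clopper-Pearson intervals cover counting error only. A read that carries no molecular identifier is not an independent molecule. The ratios and the test were also run on simulated counts with counting error only and known library sizes. That run checks the calculation and cannot show how the test behaves with replicate spread. Alternatives were DESeq2 1.42.0 size factors, total, spike-in and coding counts, other minimum counts, priors and thresholds, and the second quantification. Coding TPM rescales TPM to 1000000 over the nuclear coding genes without Lars2. Python 3.11.15, numpy 2.4.6, scipy 1.17.1, pandas 2.3.3 and matplotlib 3.10.9 were used. All members were named, and genes of the other lists were named at 1 TPM or more in both libraries. A few genes below that level were named after their values were seen. The members and lists were chosen with earlier results of these data known. Promoters came from the RefSeq table (GRCm38.p6), and protein sequences were not used here.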

Additional observations from a re-analysis of the deposited data

How the results depend on the processing

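The members' levels moved with the scale. Their median of 1.32 TPM became 4.92 as coding TPM, 2.19 TPM in the second quantification and 3.85 TPM over the 18 members at 1 TPM or more in both libraries. Leaving out a library gave medians of 1.075 to 1.57 TPM. Scaling by total counts moved the median of all genes to 0.91, by spike-in counts to 0.16, by DESeq2 size factors to 0.03 and by coding counts to 0.05. With total counts the members' median log2 ratio was 1.00, close to the shift of all genes, and 21 members were called and 15 were 2-fold apart. With spike-in counts 8 were called. The shares of all genes called or 2-fold apart are not given for these settings, so the counts of members have no baseline here. With no minimum count 4 were 2-fold apart, at 1.5-fold 2 were, and at a minimum mean count of 100 there were 12 members higher in replicate 2, fewer members being tested.

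Ratios that changed sign with total counts were those of Cd68 (0.27), Tyrobp (0.77), Laptm5 (0.84), Fcer1g (0.62), Fcgr3 (0.33), Cd163 (0.52) and Trem2 (0.60). With spike-in counts they were Tyrobp (0.030) and Laptm5 (0.093), and in the second quantification Fcer1g (0.079), Aif1 (-0.11), Itgam (-0.17) and Trem2 (0.22). Cd68 was no longer called with spike-in counts, nor Lyve1 with total counts. In turn, C1qa (0.46), Csf1r (0.34), Ctss (0.55) and Cx3cr1 (0.52) were called with spike-in counts. DESeq2 size factors and coding counts left the direction and the call of all 29 tested members as they were. The cause of the other changes was not tested. No paired analysis was possible because there is 1 group.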

Other observations

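The deposited TPM of 8 members lay below the lower bound of the interval deposited beside it in replicate 1: Laptm5, Adgre1, Itgb2, Aif1, Ms4a7, Folr2, S100a8 and S100a9. In replicate 2 this held for 0 members. For Adgre1 the value was 0.51 TPM and the interval ran from 0.533 to 1.93 TPM, and for Laptm5 the value was 2.54 TPM and the interval ran from 3.03 to 6.23 TPM.

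As coding TPM, 25 of the 34 members were higher in replicate 2. Lyz2 was at 43.9 and 46.3, Csf1r at 18.3 and 18.1, Cd68 at 22.97 and 13.9, and Lyve1 at 6.04 and 3.72 on that scale.

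In the second quantification 21 members reached 1 TPM in both libraries, and the log2 ratio had the same sign as in the first for 25 of the 29 tested members. Its counts were a median of 1.09 times those of the first in replicate 1 and 1.10 times in replicate 2.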
